A study of Homo sapiens with 6 samples.

Results

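The paxillin family and its closest focal adhesion partners were 10 of the 29123 gene names read by 6 Agilent Whole Human Genome arrays, and 17 of the 41000 probes belong to them. The members were all non-control probes whose gene name on the array is TGFB1I1, PXN, LPXN, PTK2, PTK2B, VCL, GIT1, GIT2, PTPN12 or CSK. These probes were taken whatever their values, but the genes were chosen with earlier results of these data known. TGFB1I1 is the gene of Hic-5, the protein that the study set out to suppress or overexpress. PXN and PTK2 have 3 probes each, VCL, GIT1 and GIT2 have 2 each, and the others have 1 each.

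The cells were SKOV3 and A2780s, established human ovarian adenocarcinoma lines. SKOV3 clones sh-S1 and sh-S2 were made by lentiviral transduction with Hic-5 shRNA in pLKO.1-puro and puromycin selection, and their Ctrl clone carries a scramble sequence in the same vector. The A2780s clone pCMV-Hic-5 carries a human Hic-5 cDNA in the pCMV6 vector under neomycin selection, and its Ctrl clone carries the empty vector. Each clone is a single stable line and gave 1 RNA. Each modified clone was hybridized against the Ctrl of its line on 2 arrays with the dyes Cy3 and Cy5 exchanged, which makes 4 arrays in SKOV3 and 2 in A2780s. The question of these comparisons is how gene expression differs when Hic-5 is suppressed or ectopically expressed.

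Focal adhesions are the sites where integrins link the extracellular matrix to actin filaments. Paxillin, Hic-5 and leupaxin are related scaffolds with leucine-rich LD motifs, which bind kinases and actin linkers, and LIM domains, which anchor the protein at adhesions. Hic-5 is known as a gene induced by TGF-beta and hydrogen peroxide, and it also acts in the nucleus as a coregulator of steroid receptors. The kinases FAK and PYK2 bind paxillin and phosphorylate it, while CSK and PTP-PEST limit this signalling. Vinculin ties the complex to actin, and the GIT proteins bring in regulators of small G proteins.

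The sequences that set what could be read are those of the shRNA targets and of the probes for Hic-5 and paxillin. The labels give the following pair of target sites in the Hic-5 mRNA, each of 21 bases, and do not say which clone carries which.
shRNA target site 1: cagttcaacatcacagatgaa
shRNA target site 2: cggttgcttcaggaacttaat
The Hic-5 probe A_23_P141055 has 60 bases and lies at chr16:31488267-31488326 of hg19 on the plus strand.
TGFB1I1 A_23_P141055: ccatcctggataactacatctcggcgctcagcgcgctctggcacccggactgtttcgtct
The longest run that either target site shares with this probe is 5 bases, so the probe reads another stretch of the transcript than the sites. It was not tested whether it reads the introduced Hic-5 cDNA, the cell's own transcript or both, and on these arrays they cannot be told apart.

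The 3 PXN probes lie on the minus strand of chromosome 12 in hg19 and gave different results, so the first 30 bases are shown for a pair of them. Probe A_24_P184555 at chr12:120648265-120648324 lists 4 RefSeq transcripts. Probes A_23_P13969 and A_23_P409355, the latter at chr12:120656749-120656808, list 0 RefSeq transcripts and are named on the array by a GenBank mRNA.
PXN A_24_P184555: ctgtaaacttccaagctggcttttcccatt
PXN A_23_P409355: cttgccttgttgaggctttttcctttcaga

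On the SKOV3 arrays Cy5 was weak. The median signal above local background was 9.52 to 25.4 in Cy5 and 373 to 531 in Cy3, and 43.7 to 63.6% of spots were well above background in Cy5 against 88.8 to 94.5% in Cy3. An offset of 50 was added to every signal before the ratio, which draws the ratios of dim probes towards 0. Over 24955 probes the turned ratios of a dye swap had r = 0.61 in each SKOV3 clone, and arrays of the same orientation had r = 0.89 to 0.90 between clones. In A2780s the medians were 325 to 369 in Cy3 and 441 to 568 in Cy5, and the dye swap correlated with r = 0.49 over 30530 probes. Each cell line had a slide and scan of its own, so wherever levels of the lines are set side by side a slide effect and a line effect cannot be told apart.

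Both sh RNAs, as labelled, stood between the Ctrl RNAs of the lines on several markers. The log2 level of PAX8, a transcription factor of Mullerian epithelium, was 13.88 in SKOV3 Ctrl, 10.39 in sh-S1, 10.22 in sh-S2 and 8.87 in A2780s Ctrl. It was the only one of 4 ovarian or Mullerian markers that was lower by at least 1 log2 in both sh RNAs, since WT1, MUC16 and MSLN were at 6.84 to 7.57 in all 3 SKOV3 RNAs. The level of ERBB2, which is amplified in SKOV3, was 13.21, 11.15, 10.71 and 10.47 in the same order. Of 6 epithelial markers, the keratins KRT7, KRT8, KRT18 and KRT19 were lower by at least 1 log2 in both sh-S1 and sh-S2, and CDH1 and EPCAM were well above background on only 2 of 4 SKOV3 arrays. EPCAM was at 7.50 in SKOV3 Ctrl, 7.52 in sh-S1, 7.29 in sh-S2 and 8.00 in A2780s Ctrl. CDH1 was at 6.86, 6.85, 6.81 and 6.49 in the same order, so the fall was one of keratins. The 5 epithelial markers measured in all RNAs were also summed on the linear scale, where keratins make up most of the sum. That sum was 39300 in SKOV3 Ctrl, 5404 and 5421 in the sh RNAs, and 1840 in A2780s Ctrl. LIN28B and CDKN2A were higher in both sh RNAs than in SKOV3 Ctrl by at least 0.5 log2. The 6 markers of blood, endothelium and fibroblasts summed on the linear scale to 1265 to 1360 in the 3 SKOV3 RNAs and 1039 to 1113 in A2780s RNAs. None moved by more than 0.22 log2 in the sh RNAs. For SKOV3 Ctrl, CD14, CD3E and COL1A1 were well above background on all 4 arrays, and PTPRC and VWF on 2. For A2780s Ctrl these were well above background on both arrays. PECAM1 was so on at most 1 array of any RNA. Over 23728 probes the levels of sh-S1 correlated with those of SKOV3 Ctrl at r = 0.95 and with those of A2780s Ctrl at r = 0.94, and for sh-S2 the values were 0.94 and 0.95, against 0.99 between the sh RNAs and 0.87 between the Ctrl RNAs. The part of these differences in the results that follow was not tested, and the SKOV3 clones are called by their labels.

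TGFB1I1, the target, comes first as a check of the labels. In SKOV3 its log2 ratio of clone over Ctrl was -0.16 and 0.12 for sh-S1, with the clone in Cy5 and in Cy3, and -0.12 and 0.28 for sh-S2. The values lay on both sides of 0 and their sign followed the dye, so neither RNA labelled as a Hic-5 knockdown showed less Hic-5 mRNA at this probe. The mean over the clones was 0.031 ± 0.073 (SD, n = 2), with a 95% interval of -0.20 to 0.26 and an adjusted p of 0.855 by limma. Signals above background were low in Cy5, at 26.1 and 16.4 for Ctrl and 8.44 and 13.2 for the clones. In Cy3 they were 717 and 611 for Ctrl and 662 and 472 for the clones, all well above background. With the scanner software's processed signals, which carry no such offset, the mean was 0.20. The labels say that knockdown in the clones was checked by RT-PCR and by Western blot, measurements not analysed here.

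In A2780s the TGFB1I1 ratio was 4.05 when pCMV-Hic-5 RNA carried Cy5 and 2.60 when it carried Cy3. The mean of 3.33, or 10.0-fold, was the highest of the 30530 probes that entered, in the direction the label gives. There is 1 pair of RNAs and no test of the condition.

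The order of TGFB1I1 levels over the RNAs was pCMV-Hic-5, A2780s Ctrl and then the SKOV3 RNAs. The log2 level was 16.40 in Cy3 and 16.02 in Cy5 for pCMV-Hic-5, and 11.96 and 13.80 for A2780s Ctrl. In SKOV3 Ctrl it was 8.39 and 8.16 in Cy3 and 8.55 and 7.78 in Cy5, in sh-S1 8.67 and 8.23, and in sh-S2 8.06 and 8.05. The levels of the SKOV3 RNAs overlapped, and the levels of the A2780s RNAs lay above them without overlap in either dye. A2780s Ctrl exceeded SKOV3 Ctrl by 3.69 in Cy3 and 5.63 in Cy5 on the log2 scale, a mean of 4.66 or 25.2-fold. Over 23728 probes the median absolute difference between these RNAs was 0.47, and 1.51% were higher in A2780s Ctrl by 4-fold or more.

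**Figure D1:**
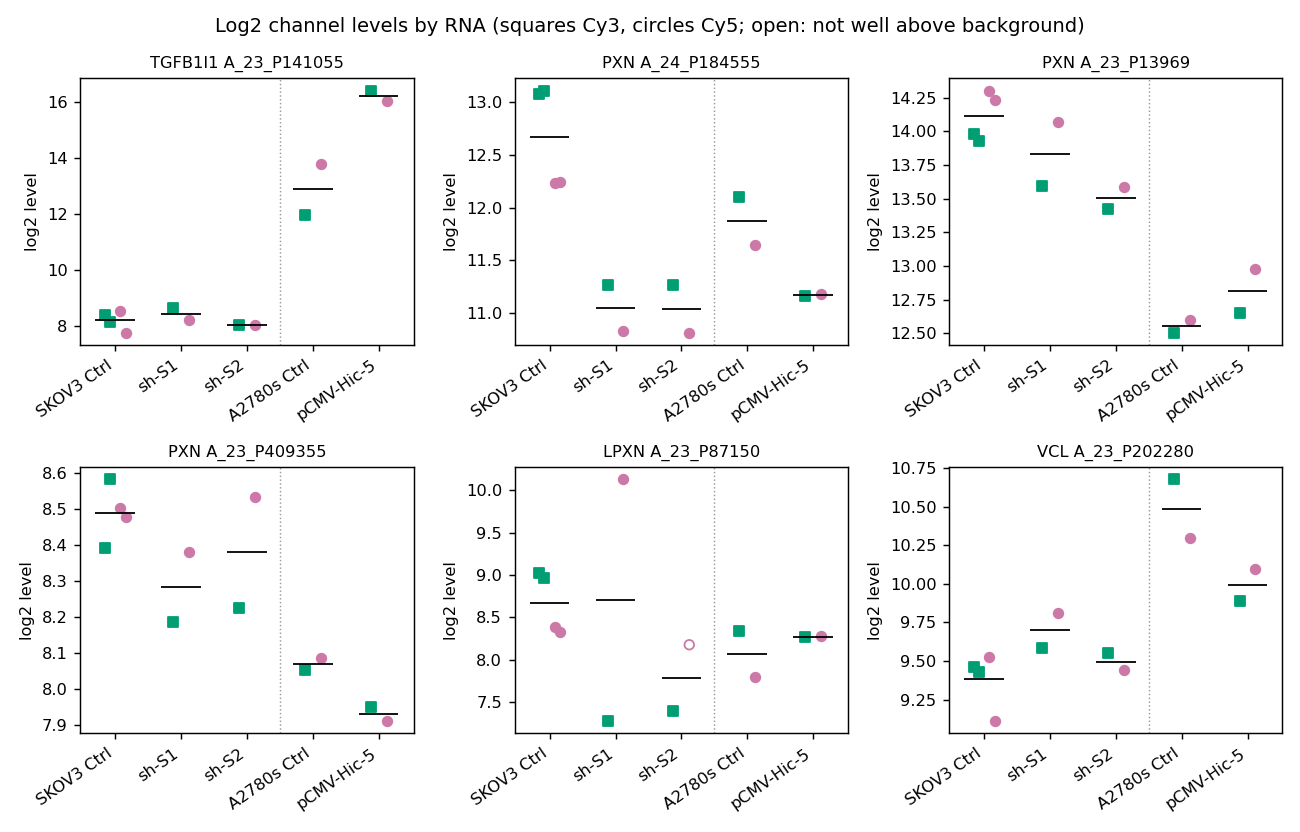
Log2 channel level (vertical axis) of 6 probes in the 5 RNAs, with squares for Cy3, circles for Cy5, open symbols where a spot was not well above background, lines at the mean of an RNA, and a dotted line between the slides. TGFB1I1 lay near 8 in the 3 SKOV3 RNAs, at 12.88 in A2780s Ctrl and at 16.21 in pCMV-Hic-5, while PXN probe A_24_P184555 was lower in each modified clone than in its Ctrl.

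Paxillin, the founding scaffold of the family, was the only member gene called in SKOV3, and at 1 of its 3 probes. At A_24_P184555 the log2 ratio was -2.24 and -0.97 for sh-S1 and -2.29 and -0.97 for sh-S2, with the clone in Cy5 and in Cy3. All 4 arrays were lower, and the values with the clone in Cy5 lay further from 0 in both clones. The probe fell by 1.62 on the log2 scale, or 3.07-fold, with an SD of 0.020 over the clones, a 95% interval of -1.84 to -1.40 and an adjusted p of 4.95e-05 by limma. The n of 2 clones stands against a single Ctrl RNA, whose own spread the test leaves out. The gap between dye orientations, -1.29, was averaged out before the test, so the SD and interval do not cover it. All 4 array values lay outside the interval. Among the 13 member probes that entered, 1 was called lower and 0 higher, with 0.05 as the limit on the adjusted p and 2-fold as that on the change, where 7.13% of all 24955 probes were called, 4.16% lower and 2.97% higher. The share of the member probes, 7.69%, was near that background, and A_24_P184555 was number 453 from the lowest ratio. With only the arrays that had the clone in Cy3 the mean was -0.97, short of 2-fold, with an adjusted p of 0.00117.

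In A2780s the same PXN probe was -0.91 and -0.48 in pCMV-Hic-5 over Ctrl. Both arrays were lower, and the mean of -0.70, or 1.62-fold lower, passed the rule for these cells, a mean of 1.5-fold with the same direction on both arrays. By that rule 2 of 16 member probes that entered changed, this one and that of TGFB1I1, the gene introduced into the clone. The share was 12.5%, against 4.58% of all 30530 probes, with 1.32% lower and 3.26% higher. Apart from the introduced gene only 1 member probe passed, so the share is not a result about the members. Lower by the rules of both lines were 0.152% of the 23728 probes that entered in both. That share is no test of this probe, which was singled out from the members by its values. On its own, the array with pCMV-Hic-5 in Cy3 fell short of 1.5-fold at this probe.

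The level of A_24_P184555 ran from 13.07 and 13.11 in SKOV3 Ctrl in Cy3 and 12.24 and 12.24 in Cy5 to 11.27 in Cy3 and 10.84 and 10.82 in Cy5 for the sh clones. A2780s Ctrl was at 12.10 in Cy3 and 11.64 in Cy5, and pCMV-Hic-5 at 11.16 and 11.18. Within each dye, SKOV3 Ctrl was highest and A2780s Ctrl came second. The mean of the sh RNAs minus A2780s Ctrl was -0.83 in Cy3 and -0.82 in Cy5, so at this probe they did not lie between the Ctrl RNAs. At the other PXN probes they did, with a mean above A2780s Ctrl by 1.00 and 1.23 at A_23_P13969 and by 0.15 and 0.37 at A_23_P409355, in Cy3 and Cy5.

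The other PXN probes did not move by 2-fold. At A_23_P13969 the ratios were 0.089 and -0.71 for sh-S1 and -0.34 and -0.81 for sh-S2, a mean of -0.44 ± 0.19 (SD, n = 2) with a limma adjusted p of 0.0198, and 31.7% of all probes passed the adjusted p at any fold. At A_23_P409355 they were -0.011, -0.32, -0.050 and -0.25, a mean of -0.16 with an interval of -0.38 to 0.064. In A2780s the first of these was 0.47 and 0.054 and the second -0.14 on each array. By the scanner software's processed signals the limma adjusted p of A_23_P13969 was 0.0656. The PXN probes therefore differed in size in SKOV3.

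LPXN encodes leupaxin, a paxillin relative best known from blood cells. Its single probe gave 1.104 and -1.11 for sh-S1 and -0.78 and -0.92 for sh-S2. The sh-S1 array with the clone in Cy5 stood on the other side of 0 from the other 3 arrays. The mean was -0.43 ± 0.60 (SD, n = 2), with an interval of -0.88 to 0.028 and an adjusted p of 0.144, and the sh-S2 signal in Cy5 was not well above background. With only the arrays that had the clone in Cy3 the mean was -1.02 with an adjusted p of 0.00111, which would be called. Median centring in place of loess gave -0.92 with an adjusted p of 0.00109, and the processed signals gave -1.16 with 0.121. In A2780s the ratios were -0.058 and 0.47, a mean of 0.21.

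**Figure D2:**
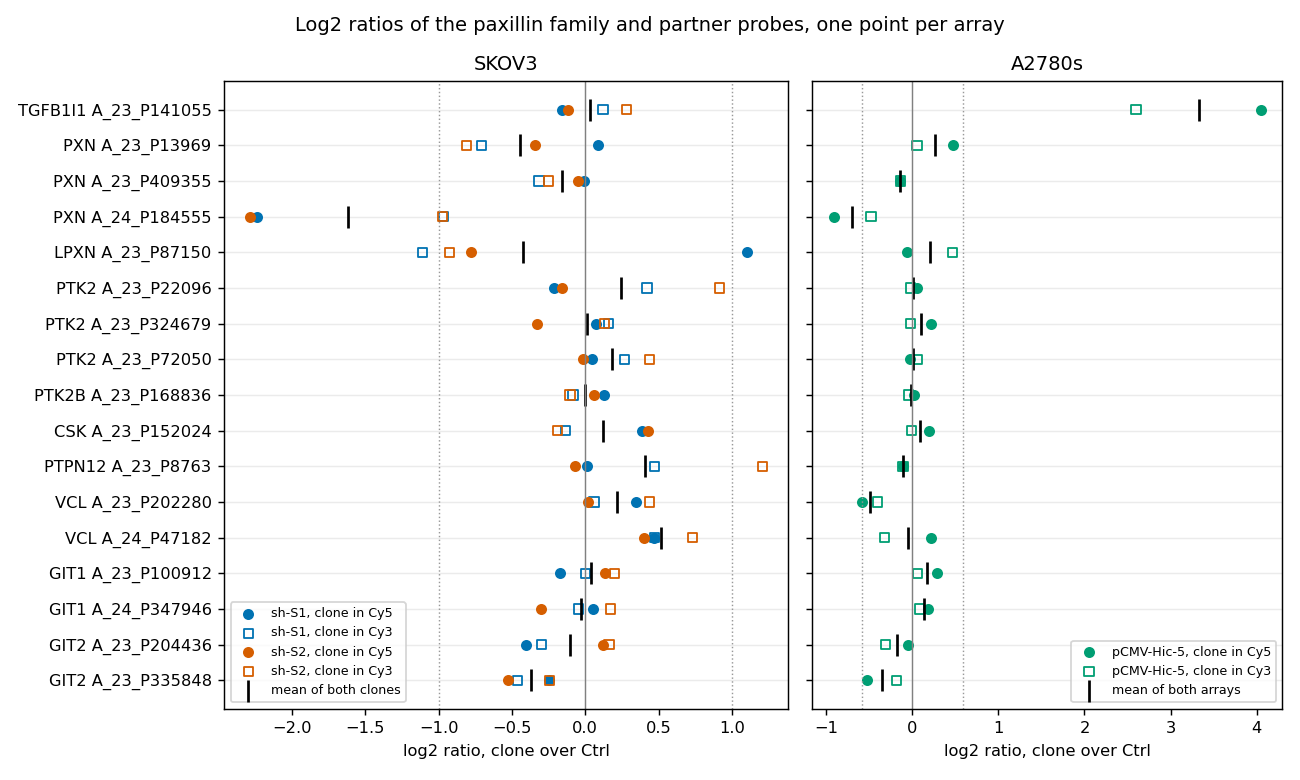
Log2 ratio of modified clone over Ctrl (horizontal axis) for each member probe (vertical axis), with circles for arrays that had the clone in Cy5, squares for Cy3, black ticks for means, and dotted lines at 2-fold in SKOV3 and 1.5-fold in A2780s. PXN A_24_P184555 has the only SKOV3 mean past 2-fold, -1.62, and TGFB1I1 in A2780s stands apart at 3.33.

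Of the PTK2 and PTK2B kinase probes, none that entered in a cell line passed its rule. PTK2, the gene of focal adhesion kinase, has a probe, A_23_P72050, printed on 10 spots of each array, so the error within an array can be seen. Its means were 0.045 and 0.27 for sh-S1 and -0.018 and 0.44 for sh-S2, from 8 to 10 spots after outlier spots were left out. The SD over spots was 0.084 to 0.31 on these arrays. The array of sh-S2 in Cy3 was the widest, with spots from -0.15 to 0.80. The mean over the clones was 0.18 ± 0.039 (SD, n = 2), with an interval of -0.040 to 0.41 and an adjusted p of 0.196. In A2780s, with spot SDs of 0.072 and 0.076, the ratios were -0.031 and 0.056.

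The other PTK2 probes did not pass the rule of a cell line where they entered. A_23_P22096 was at -0.21, 0.42, -0.16 and 0.92 in SKOV3, where the clone in Cy3 was higher on both swaps. Its mean was 0.24 with a limma adjusted p of 0.142. With the processed signals the mean was 0.49 with a limma adjusted p of 0.0398, short of 2-fold. A_23_P324679 was well above background on only 2 of 4 arrays in each SKOV3 group and was not tested, with ratios from -0.33 to 0.16. In A2780s their means were 0.013 and 0.10. A2780s Ctrl was above SKOV3 Ctrl at all 3 PTK2 probes, by 0.73, 0.59 and 0.45 on the log2 scale, set against the median absolute difference of 0.47.

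PTK2B encodes PYK2, the calcium-responsive relative of focal adhesion kinase. Its probe, also on 10 spots, was well above background only in Cy3 in SKOV3 and was not tested there. Its ratios were 0.13 and -0.084 for sh-S1 and 0.060 and -0.10 for sh-S2, and 0.020 and -0.047 in A2780s. Their sign followed the dye in each clone. The SD over spots ran from 0.097 to 0.23, which is the spread of single spots and not the error of these means. At these Cy5 signals a change in SKOV3 may not have been detectable.

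**Figure D3:**
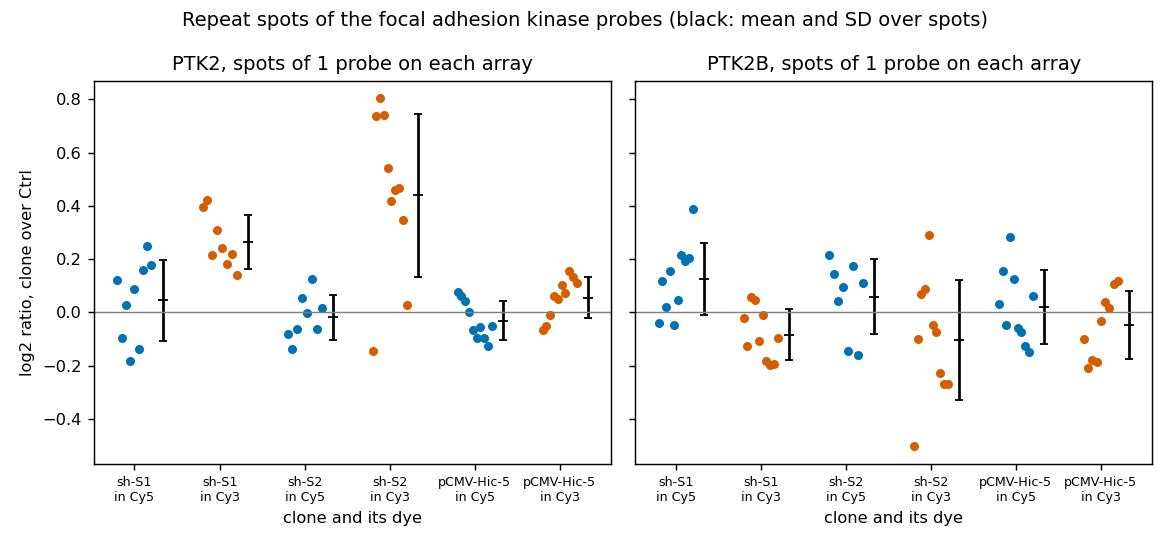
Log2 ratio of clone over Ctrl (vertical axis) on each repeat spot of the PTK2 probe A_23_P72050 and the PTK2B probe on the 6 arrays (horizontal axis), blue for the clone in Cy5 and orange for Cy3, with the mean and SD over spots in black. The spread over spots was widest on the sh-S2 array with the clone in Cy3, where the SD was 0.31 for PTK2 and 0.23 for PTK2B.

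Of the inhibitory enzymes, CSK, the kinase that holds SRC family kinases inactive, was at 0.39 and -0.13 for sh-S1 and 0.43 and -0.19 for sh-S2. Its sign followed the dye in both clones, and the mean of 0.12 had an adjusted p of 0.384. In A2780s it was 0.20 and -0.014. PTPN12, the gene of the paxillin phosphatase PTP-PEST, was at 0.013 and 0.47 for sh-S1 and -0.068 and 1.21 for sh-S2. The arrays with the clone in Cy3 were the high ones. The mean of 0.41 ± 0.23 (SD, n = 2) had a limma adjusted p of 0.0336 and an interval of 0.14 to 0.68, short of 2-fold. That p was lost under median centring, at 0.20 with an adjusted p of 0.352, and with the processed signals, at 0.34 with 0.170. In A2780s it was -0.11 on each array.

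VCL encodes vinculin, which binds talin and actin at stretched adhesions. Probe A_24_P47182 was at 0.47 and 0.47 for sh-S1 and 0.40 and 0.73 for sh-S2, higher than Ctrl on all 4 arrays. Its mean of 0.52, or 1.43-fold, had an SD of 0.066 over the 2 clones and a limma adjusted p of 0.00658, and did not reach 2-fold. Under median centring it was 0.32 with an adjusted p of 0.0826. Probe A_23_P202280 was at 0.35, 0.059, 0.016 and 0.44, a mean of 0.22 with an interval of -0.006 to 0.44. In A2780s the first probe was 0.22 and -0.32 and the second -0.58 and -0.40. The second was lower on both arrays, with a mean of -0.49 short of 1.5-fold, while the first had no settled sign. At A_23_P202280 A2780s Ctrl lay above SKOV3 Ctrl by 1.105, or 2.15-fold, and at A_24_P47182 by 0.31.

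GIT1 and GIT2 are scaffolds that carry PIX exchange factors and PAK kinases to paxillin. Both GIT1 probes were well above background only in Cy3 in SKOV3 and were not tested, with ratios from -0.30 to 0.20. In A2780s they were 0.062 to 0.28, and 1 of them entered. For GIT2, probe A_23_P335848 was at -0.24 and -0.46 for sh-S1 and -0.53 and -0.24 for sh-S2, lower on all 4 arrays. Its mean of -0.37 had an SD of 0.024 over the 2 clones and a limma adjusted p of 0.0236, short of 2-fold. In A2780s it was -0.52 and -0.18. Probe A_23_P204436 was at -0.40 and -0.30 for sh-S1 and 0.12 and 0.16 for sh-S2, with a mean of -0.10 and an adjusted p of 0.630, and at -0.054 and -0.31 in A2780s. The Cy5 signal of sh-S1 at A_23_P204436 was not well above background, at -0.017 after subtraction.

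The wider focal adhesion machinery was read from 73 other genes, by the brightest probe of each. In SKOV3, 68 were measured, of which 9 fell, 3 rose and 56 did not pass, so that 17.6% were called against 7.13% of all probes. That background holds every probe that entered, dim ones included, and the list was chosen with earlier results of these data known. By the processed signals 18 of 68 were called, against 17.3% of all probes. By the mean over all probes of a gene it was 10 of 69, against 6.69% of genes. The median log2 ratio was -0.10, against 0.002 over all probes tested. CAV1, the gene of the membrane scaffold caveolin-1, fell by 3.73 on the log2 scale, with -3.18 and -4.12 for sh-S1 and -3.24 and -4.40 for sh-S2. Of 8 integrins 2 fell, with the laminin receptor subunit ITGA6 lowest, which fell by 1.98. FHL2, a LIM protein of adhesions and the nucleus, fell by 1.87, and FERMT1, the epithelial kindlin, fell by 1.71. All 4 arrays were lower for each of these, and the limma adjusted p were 3.03e-06, 2.06e-05, 3.00e-05 and 0.000195.

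The 3 genes that rose in SKOV3 were SHC1, an adaptor of receptor tyrosine kinases, by 1.54, FERMT2, the mesenchymal kindlin, by 1.34, and RSU1, a partner of the ILK complex, by 1.32. They were higher on all 4 arrays, and the limma adjusted p were 0.000104, 0.000324 and 0.000511. For SHC1 and RSU1 other probes of the gene reached only 0.18 and 0.036, and for FERMT1 another probe was at 0.044. By group, 4 of 21 actin linkers and LIM proteins fell, 1 of 4 genes of the ILK complex fell and 1 rose, 1 of 5 integrin activators did each, and 1 of 9 adaptors did each. None of 7 kinases, 4 phosphatases or 10 G proteins and their regulators passed adjusted p and fold.

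ITGB1, the shared beta subunit of many integrins, was not counted in SKOV3, since a spot of its brightest probe was left out on 1 array. It is named here after its values were seen. Its other probes were at -1.85 and -1.59, both called lower.

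The called genes were set beside the difference between the Ctrl RNAs, which shares the SKOV3 Ctrl with the comparison above, so no relation between them was computed. A2780s Ctrl minus SKOV3 Ctrl was -5.02 for CAV1, -3.41 for FERMT1, -2.16 for ITGA6 and -0.59 for FHL2. It was 1.77 for SHC1, 1.89 for FERMT2 and 1.08 for RSU1.

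In A2780s, 69 of the 73 genes entered, of which 4 were lower and 1 higher by the rule, 7.25% against 4.58% of all probes. The median was -0.040, against -0.007 over all probes. ITGB1 was at -0.97 and -0.39, PARVA, an actin-binding partner of ILK, at -0.80 and -0.44, PTPN11, the phosphatase SHP2, at -0.87 and -0.36, and KANK1, a talin partner at the adhesion rim, at -0.93 and -0.28. SORBS3, the vinculin-binding vinexin, was at 1.00 and 0.28. None of these 5 reached 1.5-fold on both arrays. For PTPN11, KANK1 and PARVA other probes of the gene were at up to 0.17, -0.11 and -0.096. The other ITGB1 probes had means of -0.535 and -0.451, short of 1.5-fold.

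**Figure D4:**
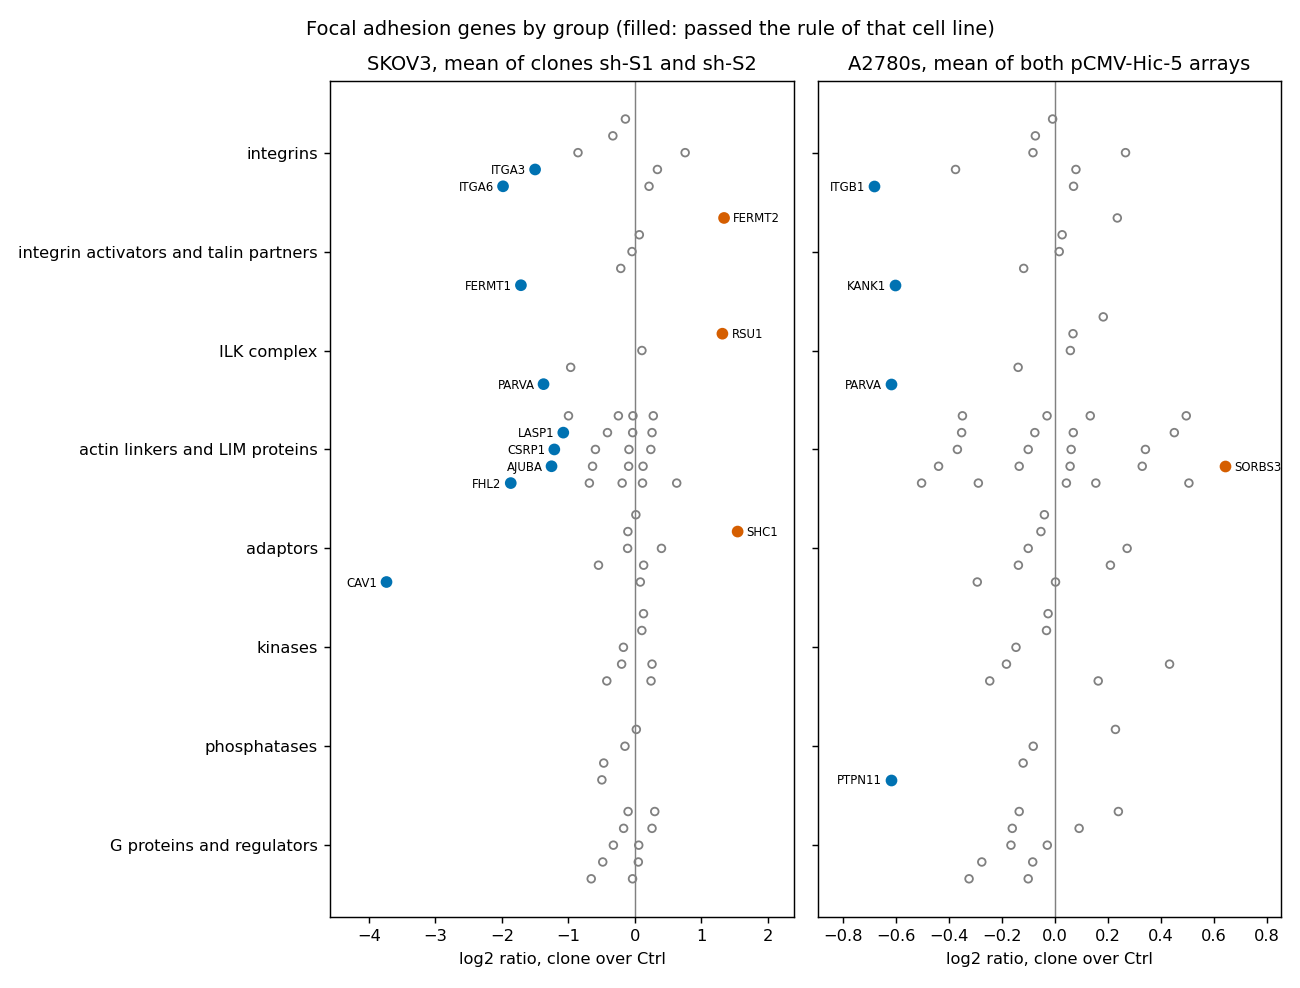
Mean log2 ratio of clone over Ctrl (horizontal axis) of 73 other focal adhesion genes by group (vertical axis), with filled points for genes that passed the rule of the cell line, blue lower and orange higher. In SKOV3 9 genes fell and 3 rose, led by CAV1 at -3.73, and in A2780s 4 were lower and 1 higher, with ITGB1 lowest at -0.68.

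The genes with the ratios nearest to those of TGFB1I1 over the 6 arrays, by root mean square difference among 23715 probes, were CSH1 at 0.69, HTRA3 at 0.71, ATF3 at 0.77, FICD at 0.85 and IL21R at 0.85. CSH1 is a placental lactogen, HTRA3 a secreted serine protease, ATF3 a stress-induced transcription factor, FICD an enzyme of the endoplasmic reticulum, and IL21R a cytokine receptor. Their means in A2780s were 2.22, 2.33, 3.20, 1.99 and 2.34, and in SKOV3 they lay between -0.21 and 0.31. The likeness is set mostly by the A2780s pair of arrays, where both RNAs of a pair are single.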

How the data were processed

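The authors deposited Agilent Feature Extraction scanner output for the 6 arrays, with mean spot intensities and median local background intensities in both dyes, not normalized. The software is version 10.7.3.1 in the file headers and 8.5.1.1 in the submitters' processing notes. Further deposited values are log10 ratios, Cy5 divided by Cy3, that the authors' software computed from its processed intensities and that keep the dye order on swapped arrays. The series values were checked and are the same log10 ratios rounded, with column medians of 0 on 5 arrays and 0.00139 on the pCMV-Hic-5 array with the clone in Cy3. For the array analysis the study's methods refer to earlier work. They filter on a p of at most 0.05 and then on a fold of 2 in SKOV3 and 1.5 in A2780s, and the text used here names no background correction, normalization or test.

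Each array holds 45015 spots, 1639 of them controls. Background was corrected with normexp (offset 50) in limma 3.58.1 under R 4.3.3 with version 1.17.8 of data.table. Spots with a local background over 1000 (40 on 1 A2780s array, none of a member) or an outlier flag (121 to 362 per array, 8 of members in all) were left out, ratios were normalized by loess, spots of a probe were averaged, and ratios were turned to clone over Ctrl as log2. No member spot was saturated. Channel levels were set by loess and Aquantile and compared only within a probe.

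Swapped arrays of a clone were averaged to 1 replicate, so a gap between dye orientations does not enter the SD, interval or p. In SKOV3 the 2 clone means were tested against 0 by lmFit and eBayes with Benjamini-Hochberg adjustment over all probes tested. Clones are separate lines, but nothing says that RNA was drawn from separate cultures, so p-values measure the spread between these samples only. In A2780s no test was possible. Probes entered when well above background on every array in Ctrl, or on both arrays of any clone. The steps were tested on simulated data. Precision is limited by how few arrays there are.

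The text names all member probes, up to 4 list genes with the largest change per line and direction among those that passed with 1 sign on all arrays, the 5 genes nearest to TGFB1I1, and the markers. The members, lists and tests were chosen with earlier results of these data known. Coordinates are those of hg19 in the files, and exon or UTR annotation was not used here. The sequence of PXN probe A_23_P13969 is not reported here.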

Additional observations from a re-analysis of the deposited data

Results flagged for a closer look

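GIT2 probe A_23_P204436 had values of opposite sign in the SKOV3 clones, with sh-S1 at a log2 ratio of -0.351 and sh-S2 at 0.141, each the mean of 2 dye-swapped arrays of the same sign. The sh-S1 value rests in part on a Cy5 spot that was not well above background. The difference between the clones was not tested, since each is 1 RNA. The other GIT2 probe was lower in both clones.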

How the results depend on the processing

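In SKOV3, 1 member probe was called under every alternative tried, which were the processed signals, the series values, normexp on all spots, median centring, no filter on dim probes, each dye orientation, and leave-one-out of each clone (1 to 1). With the clone in Cy3 only, PXN A_24_P184555 was not called and LPXN was. The focal adhesion list count of 12 ran from 10 to 18, and from 13 to 16 with a clone left out, where no test is possible. Over all SKOV3 probes the share called ran from 4.36% with no filter on dim probes to 17.3% by the processed signals, against 7.13%. In A2780s the member count of 2 was 1 with the clone in Cy3 only and 1 when each array had to reach 1.5-fold, the PXN probe being lost. The list count of 5 of 69 there stood beside 4.58% of all probes. It became 3 beside 3.16% with normexp on all spots and 2 beside 4.98% with median centring. It was 11 beside 10.8% with the clone in Cy5 only and 2 beside 4.01% with it in Cy3 only. When each array had to reach 1.5-fold it was 0 beside 2.02%. By the mean over all probes of a gene it was 1, beside 3.97% of genes. So the A2780s list rests on the setting, as does the share over all probes. The causes were not tested. Quantile normalization gave 4.58 in place of 4.66 for the TGFB1I1 difference between the Ctrl RNAs. No called value changed sign. For PXN A_23_P13969, LPXN, PTK2 A_23_P22096, PTPN12 and VCL A_24_P47182 the side of the adjusted p depended on the normalization, as given beside their values. No paired analysis was possible because the samples of different groups share no replicate number that marks a common source, and a slide block could not be fitted, since each line has 1 slide. Weak Cy5 signals limit what SKOV3 ratios of PTK2B, GIT1 and TGFB1I1 can show.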
